A study of Drosophila melanogaster with 3 samples.

Results

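The comparison described here is that of mxcmbn1 hemizygous male larvae with wild-type males, across functions and tissues other than the immune response. Its members are the entries of the deposited table that name a single gene and reach 10 FPKM in at least 1 of these 2 libraries. FPKM is a level per length, scaled to library size. Of 15185 entries, 14900 name a single gene and 6995 of these are members. RNA came from whole bodies of male larvae in the 3rd instar, with 1 library per genotype. Wild type was Canton S. The mxcmbn1 larvae carry a recessive lethal allele that gives the lymph gland tumour, taken from a w1 mxcmbn1 stock from which the Dp(1;4)mxc+R duplication had been removed. A further library came from mxcG43, a hypomorphic allele without a tumour, and its values are given beside the pair. All 3 libraries were whole animals, so a level mixes every larval tissue, and in such bulk samples fewer cells of a type and less RNA per cell cannot be told apart. The wild-type strain differs from the mutants in background as well as at mxc, and mxcmbn1 larvae stay longer in the 3rd instar, so genotype, background and the exact age of the larvae cannot be told apart either. Since each side is 1 library, differences cannot be set against a spread between replicates, and they are described without tests.

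The mxc gene encodes a chromatin protein of the histone locus body, the nuclear site at which replication-dependent histone genes are transcribed. The lymph gland is the larval blood-forming organ. Its precursors normally give rise to plasmatocytes, the phagocytes of the fly, to crystal cells and, after wasp attack or other stress, to flat encapsulating lamellocytes. In the last larval instar of a normal male several other organs are also at a marked stage. Spermatocytes grow in the testis, the salivary glands make glue, the fat body fills the blood with storage proteins and the epidermis prepares the puparium under the control of ecdysone, the moulting steroid.

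The mxc transcript itself (X chromosome, 9130834 to 9137237; positions are in BDGP5) was at 1.96 FPKM in wild type, 1.94 in mxcG43 and 3.56 in mxcmbn1, below the minimum for members. The stock marker w, the white gene that loads eye pigment, was at 7.25 FPKM in wild type, 5.18 in mxcG43 and 0.243 in mxcmbn1, also below it. The w1 allele is part of the mxcmbn1 genotype. The depth of the mxcmbn1 library was about 1.36 times that of wild type, as read from short entries with few reads. The male dosage compensation RNA roX1 was at 247 FPKM in wild type, 201 in mxcG43 and 195 in mxcmbn1, and roX2 at 37.1 FPKM in wild type, 46.7 in mxcG43 and 35.4 in mxcmbn1: both RNAs, made in males, were present in every library. Markers of larval muscle, midgut, fat body, salivary gland and neurons were above 1 FPKM in wild type and mxcmbn1. Their summed levels in wild type and mxcmbn1 were 2265 and 2003 FPKM for muscle, 2597 and 3775 for midgut, and 12 and 7.51 for neurons. The salivary gland markers went from 21463 to 1341 FPKM, the fat body markers from 11225 to 3234, and the 5 testis germline markers from 109.7 to 14.2. Haemocyte markers moved the other way, from 174 to 1208 FPKM over 8 genes, none of them at 0. The part that such a shift in the mix of tissues has in any single gene below was not tested.

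Most members were at similar levels in both genotypes, and far more genes were strongly lower in mxcmbn1 than strongly higher. Of the 6995 members, 4314 (61.7%) lay within 2 times of wild type, and the median ratio of mxcmbn1 to wild type was 0.985. At least 4 times higher were 403 members (5.76%), of which 74 were listed at 0 in wild type. At least 4 times lower were 1135 (16.2%), of which 136 were listed at 0 in mxcmbn1. Counts within the gene lists below are to be read against these shares. A gene that reached 10 FPKM in only 1 of the 2 libraries is a member through that library, so its ratio follows in part from this filter. In the mxcG43 library, which shares the wild-type library as its reference, 154 of 6531 genes (2.36%) were at least 4 times higher and 117 (1.79%) at least 4 times lower, with the minimum applied to that pair. The list of immune genes set apart here, 76 in the table, held 38 of the higher genes and 1 of the lower ones among 57 members. The great majority of both groups thus lay off this list, but a gene off the list may still have an immune role. Of the 403 higher genes, 201 are listed under a CG or CR number, although some of these have since been named. The paper, with its own classes and a higher threshold, counted a larger share of its upregulated genes as immunity-related. The shares are therefore not comparable.

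The lower genes were not an even tail. Ratios between 0.05 and 0.25 were found for 252 members, whereas 747 lay above 0 but at 5% of wild type or less. Within that group 314 were between 1% and 2% and 265 under 1%. The ratios thus formed a second mode far below the main one, which stood near 1. The median levels of the lower genes were 22.1 FPKM in wild type, 16.9 in mxcG43 and 0.378 in mxcmbn1. For the higher genes they were 4.04, 6.73 and 60.4 FPKM. Genes listed under a CG or CR number made up 78.4% of the lower genes and 49.9% of the higher ones, against 52.1% of all members.

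**Figure D1:**
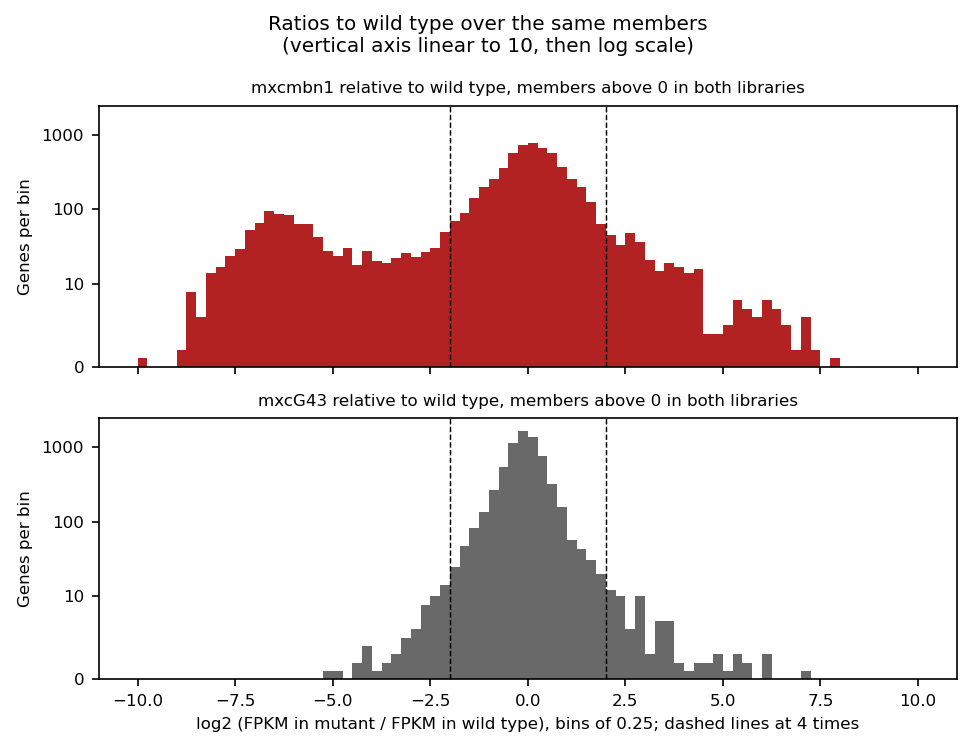
Number of genes (vertical axis, linear to 10 and then logarithmic) by log2 ratio of FPKM to wild type in bins of 0.25, for mxcmbn1 above and mxcG43 below, over the same members of the mxcmbn1 comparison that are above 0 in the libraries compared. Dashed lines mark ratios of 4 and 0.25; the mxcmbn1 panel has a second mode on the far left, where 747 genes are at 5% of wild type or less, and the mxcG43 panel has none.

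Many genes of sperm formation lay in that second mode. The Mst sperm proteins and protamines, which package the DNA and build the tail of sperm, had 22 members of 27 in the table, all 22 at least 4 times lower, with a median of 1.02% of wild type. All 22 reached the minimum in wild type, so their low levels in mxcmbn1 follow in part from that filter. Mst84Db (3R, 3190880 to 3191349), a short cysteine-rich protein of the sperm tail, was at 259 FPKM in wild type, 151 in mxcG43 and 1.23 in mxcmbn1. The gene ocn, transcribed late in spermatogenesis, was at 232 FPKM in wild type, 181 in mxcG43 and 1.54 in mxcmbn1. Don juan (dj), a sperm tail protein, was at 121 FPKM in wild type, 38.3 in mxcG43 and 0.773 in mxcmbn1. The member that kept most was Mst84Da, at 8.15% of wild type, with 29.6, 29.3 and 2.41 FPKM in wild type, mxcG43 and mxcmbn1. The 6 sperm leucyl aminopeptidases that passed, abundant proteins of mature sperm, were all lower too, between 0.792% for S-Lap3 and 1.25% for S-Lap2. All 6 passed the minimum through wild type alone. S-Lap1 led them in wild type with 186 FPKM, against 175 in mxcG43 and 1.7 in mxcmbn1. The testis-specific tubulin betaTub85D (3R, 5234105 to 5236004), needed for meiotic spindles and the sperm axoneme, was at 131 FPKM in wild type, 112 in mxcG43 and 1.47 in mxcmbn1. It was the 1 member at least 4 times lower of 3 in the list of testis tubulins and axonemal dyneins. The other 2 were above wild type, at 1.21 and 2.94 times, and 8 of the 11 genes in that list were under the minimum.

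The earlier steps of spermatogenesis were less uniform. Of 9 meiotic members, 6 were at least 4 times lower and the list median was 11.1% of wild type. Another 10 of the 19 genes in that list were under the minimum. The mitofusin fzo, which fuses the mitochondria of spermatids, was at 17.8 FPKM in wild type, 17.2 in mxcG43 and 0.149 in mxcmbn1. The testis TFIID subunits nht and Taf12L were at 17.6, 9.32 and 0.175 FPKM and 19.1, 19.9 and 3.46 FPKM in wild type, mxcG43 and mxcmbn1. The RNA-binding protein bol, which drives entry into meiosis, was at 68 FPKM in wild type, 59.6 in mxcG43 and 7.54 in mxcmbn1. The meiotic Cdc25 phosphatase twe kept 28.6% of wild type (16.7, 12.7 and 4.76 FPKM), and mip40, a subunit of a chromatin complex that is also used outside the testis, kept 60.9%. In the spermatogonia bam ends proliferation and starts differentiation, and it stood at 27.7 FPKM in wild type, 12.5 in mxcG43 and 6.2 in mxcmbn1, the single gene at least 4 times lower among 4 germline and piRNA members. In the same list krimp, a piRNA factor, was higher, at 1.93 FPKM in wild type, 2.34 in mxcG43 and 11.2 in mxcmbn1, while mael and tud lay within 2 times of wild type. The germline helicase vas was below the minimum, at 2.31 FPKM in wild type, 0.823 in mxcG43 and 0.288 in mxcmbn1. The meiotic arrest genes can and aly, named after their values were seen, were also below it. In wild type, mxcG43 and mxcmbn1, can was at 8.36, 5.14 and 0.0237 FPKM and aly at 3.39, 2.25 and 0.158 FPKM.

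Complexes that every cell uses held both steady and strongly lower genes. Several of their subunits have a duplicate gene, and many such duplicates are known in the fly for expression in the testis. In the lists of cytoplasmic ribosomal proteins, vacuolar ATPase subunits and nuclear respiratory chain subunits, the genes at least 4 times lower numbered 5 of 85, 5 of 26 and 9 of 64. These are shares of 5.88%, 19.2% and 14.1%, against 16.2% of all members. The other members of those lists ran from 0.556 to 1.89, from 0.477 to 2.06 and from 0.54 to 2.99 times wild type. The somatic subunits of the proteasome, 32 of 32 in the table, had a median of 0.723 and a range of 0.428 to 1.19, with none past 4 times. Of the 9 testis paralogs of the proteasome that passed, 8 were at least 4 times lower, with a median of 1.71% of wild type. All 9 passed the minimum through wild type alone, so their low levels in mxcmbn1 follow in part from that filter.

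For illustration, 20 duplicates were set beside the broadly expressed gene of the same subunit. They were chosen after their values were seen and mostly passed the minimum through wild type, so their low levels in mxcmbn1 follow from the choice and are no evidence about duplicates in general. One of them, ND-24L (CG6485 in the table), is below the minimum at 6.09, 7.99 and 0.102 FPKM, and betaTub85D belongs to none of these complexes. The broadly expressed genes lay between 0.54 and 1.19 times wild type. RpL10Ab, a protein of the large ribosomal subunit, was at 1643 FPKM in wild type, 1587 in mxcG43 and 1699 in mxcmbn1. Its duplicate RpL10Aa was at 41.7 FPKM in wild type, 32.8 in mxcG43 and 0.337 in mxcmbn1. RpS28a was listed at 0 in mxcmbn1, with 24.2 FPKM in wild type and 3.57 in mxcG43, while RpS28b was at 2581 FPKM in wild type, 2174 in mxcG43 and 2631 in mxcmbn1. For the membrane ring of the vacuolar ATPase, which pumps protons into lysosomes and gut lumen, Vha16-1 was at 565, 618 and 549 FPKM in wild type, mxcG43 and mxcmbn1. Its duplicates Vha16-2 and Vha16-3 were at 11.3, 9.1 and 0 FPKM and 17.3, 8.34 and 0.17 FPKM in the same order. Cytochrome oxidase subunit CoIV was at 208, 216 and 163 FPKM, and its duplicate COX4L (CG10396 in the table) at 88.8, 70.7 and 5.74 FPKM. Rpt3R, the copy of a proteasome ATPase, kept 30.8% of wild type with 18 FPKM in wild type, 16.8 in mxcG43 and 5.54 in mxcmbn1. Other duplicates, left out of this choice, were above wild type: RpS5b was at 16.9, 13.7 and 30.2 FPKM, Vha36-3 at 5.12, 7.45 and 10.6 FPKM and Vha100-5 at 30.4, 27.8 and 37.4 FPKM. Copies of one subunit can share sequence, so that single reads may fit both.

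**Figure D2:**
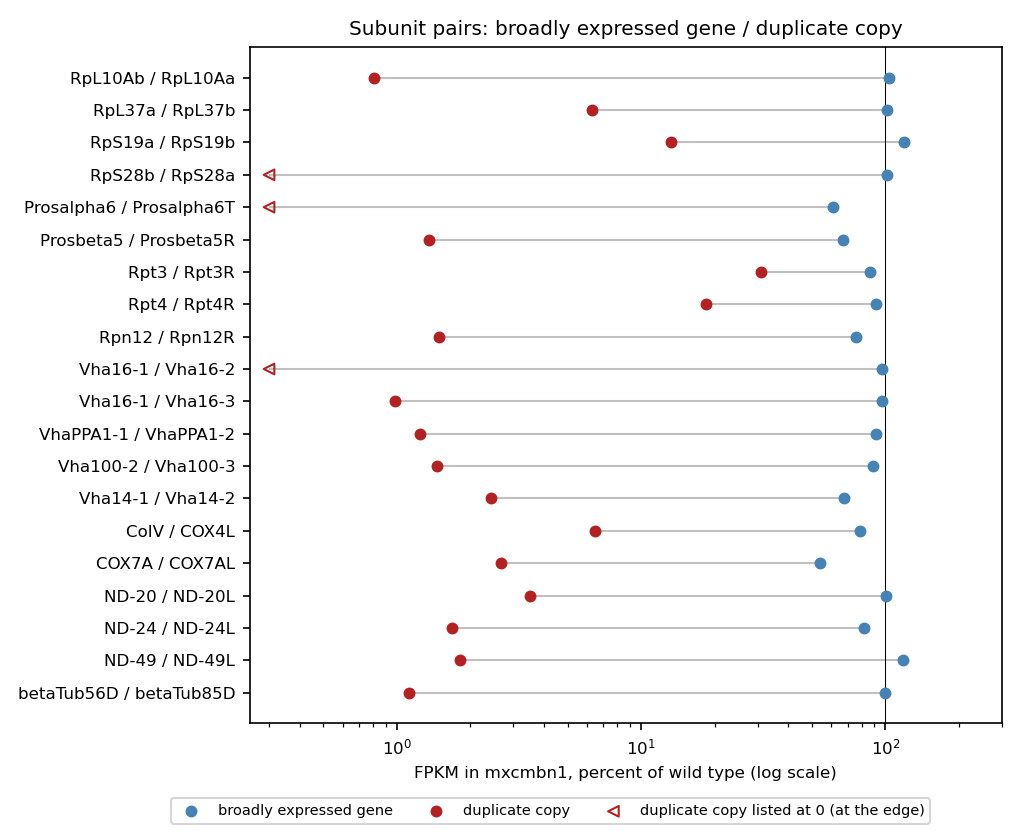
Level in mxcmbn1 as a percent of wild type (horizontal axis, log scale) for 20 duplicate copies chosen after their values were seen (red) and the broadly expressed gene of the same subunit (blue), 1 library each. Open triangles at the left edge are copies listed at 0 in mxcmbn1; the blue points lie between 0.54 and 1.19 times wild type and all red points lie to their left.

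Genes of late larval organs were among the largest absolute losses. The salivary glue list had 10 members of 11, of which 6 were at least 4 times lower, 0 were higher, and the median was 0.0818 against 0.985 over all members. Glue proteins are secreted before pupariation and fix the puparium to its support. Sgs7 (3L, 11502961 to 11503347) was at 11903 FPKM in wild type, 7298 in mxcG43 and 489 in mxcmbn1, the largest absolute loss among members outside the immune list. Sgs5, Sgs8 and Sgs1 kept 3.76%, 4.15% and 5.32% of wild type, and Sgs3 kept 10.8%. The pre-glue genes ng1, ng2 and ng3, which the gland transcribes before the glue genes, were less affected, at 0.669, 0.963 and 0.569 times wild type. In mxcG43 they were at 0.913, 1.22 and 0.342 times. They are given the same locus, which overlaps other entries, so the share of reads given to each is uncertain. With overlapping loci left out, the glue median moved from log2 -3.61 to -4.40 over 6 genes. None of the 10 late ecdysone-induced Eig71E genes in that list reached the minimum in either library. Eig71Eg, the one with the highest wild-type level, was at 9.33 FPKM in wild type and 1.67 in mxcG43 and was listed at 0 in mxcmbn1.

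Among the storage and serum proteins of the fat body, 3 of 10 members were at least 4 times lower and 1 was higher, with a median ratio of 0.42. Lsp1alpha, a hexamerin that stores amino acids for metamorphosis, was at 2744 FPKM in wild type, 1168 in mxcG43 and 190.1 in mxcmbn1. The other hexamerins were lower by less, with 36% of wild type for Lsp1beta, 25.6% for Lsp2 and 47.9% for Lsp1gamma. Fbp1 (3L, 14087689 to 14091153), the receptor through which the fat body takes the storage proteins back at the end of larval life, was at 1129 FPKM in wild type, 4098 in mxcG43 and 111 in mxcmbn1, so that the mutants lay on opposite sides of wild type. Fbp2, an alcohol dehydrogenase relative, was at 2353 FPKM in wild type, 1920.1 in mxcG43 and 273 in mxcmbn1. By contrast the main lipoprotein Rfabg (apolpp) was at 0.818 times wild type and the lipid carrier CG15828 (Apoltp) at 4.79 times, from 2.86 to 13.7 FPKM. Genes of fat storage differed little: none of 14 lipid members passed 4 times, and their ratios ran from 0.472 for the lipase mag to 2.25 for HLH106, the fly SREBP.

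Genes of ecdysone production and response were mostly below wild type, by smaller factors. All 9 response members were below 1, with a median ratio of 0.566, and 1 was at least 4 times lower. ImpE2, a secreted protein first found as an ecdysone-induced transcript of imaginal discs, was at 96.3 FPKM in wild type, 204 in mxcG43 and 4.38 in mxcmbn1. The early gene br, which sets the fate of tissues at metamorphosis, was at 57.9 FPKM in wild type, 71.3 in mxcG43 and 17.8 in mxcmbn1, and the early genes Eip74EF and Eip75B at 0.511 and 0.732 times wild type. The receptor EcR was at 0.727 times. Of the synthesis enzymes, spok was at 14.2 FPKM in wild type, 14.1 in mxcG43 and 3.94 in mxcmbn1 and sro at 11.6 FPKM in wild type, 15 in mxcG43 and 3.41 in mxcmbn1; both act in the prothoracic gland. The enzyme shd, which makes the active hormone outside that gland, was at 47.2% of wild type. The remaining member of the synthesis list, Npc1a, was above wild type at 1.27 times. No member of the synthesis list passed 4 times, and 6 of 10 genes were under the minimum. Genes of juvenile hormone, the other larval hormone, lay between 0.651 and 2.36 times wild type over 7 members.

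Cuticle genes were found on both sides of wild type. Of 44 members among 125 cuticular proteins, 8 were at least 4 times lower and 5 at least 4 times higher. The shares, 18.2% and 11.4%, compare with 16.2% and 5.76% of all members, and the median ratio was 0.605. Lcp2 and Lcp1, major proteins of the 3rd instar cuticle, were at 3608, 2062 and 90.3 FPKM and 5737, 3907 and 316 FPKM in wild type, mxcG43 and mxcmbn1. Lcp3 and Lcp4, from the same gene cluster, stood among the largest absolute losses, at 12724, 10035 and 2864 FPKM and 8926, 5414 and 2282 FPKM. Lcp65Ag1 moved the other way in both mutants, from 9.28 FPKM in wild type to 397 in mxcG43 and 229.8 in mxcmbn1. Cpr47Eg was at 15.3 FPKM in wild type, 421 in mxcG43 and 185 in mxcmbn1, and Cpr65Ax1 at 18.2 FPKM in wild type, 789.8 in mxcG43 and 118 in mxcmbn1. In each of these, wild type was the lowest of the 3 libraries. Since Lcp65Ag1, Lcp65Ag2 and Lcp65Ag3 are near-identical copies, the share of reads given to each is uncertain.

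Some enzymes that harden and darken the cuticle were lower in mxcmbn1 and higher in mxcG43. The tyrosine hydroxylase ple (3L, 6707138 to 6712625), the first step of the catecholamine pathway, was at 53 FPKM in wild type, 377 in mxcG43 and 5.62 in mxcmbn1. Pu, which makes its cofactor, was at 223 FPKM in wild type, 483 in mxcG43 and 44.6 in mxcmbn1, and the dopa decarboxylase Ddc at 46.5 FPKM in wild type, 84.5 in mxcG43 and 10.2 in mxcmbn1. These were the 3 genes at least 4 times lower of 10 members, whose median ratio was 0.564. The phenoloxidase laccase2 that crosslinks the cuticle was close to wild type, at 0.898 times, and yellow-f was at 1.56 times. In the chitin list the chitinase Cht12 was at 22.2 FPKM in wild type, 18.3 in mxcG43 and 0.452 in mxcmbn1, whereas the chitin-binding obst-I was at 4.45 FPKM in wild type, 15.6 in mxcG43 and 25.7 in mxcmbn1. The rest of the 21 members stayed within 4 times, and the list median was 0.884.

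**Figure D3:**
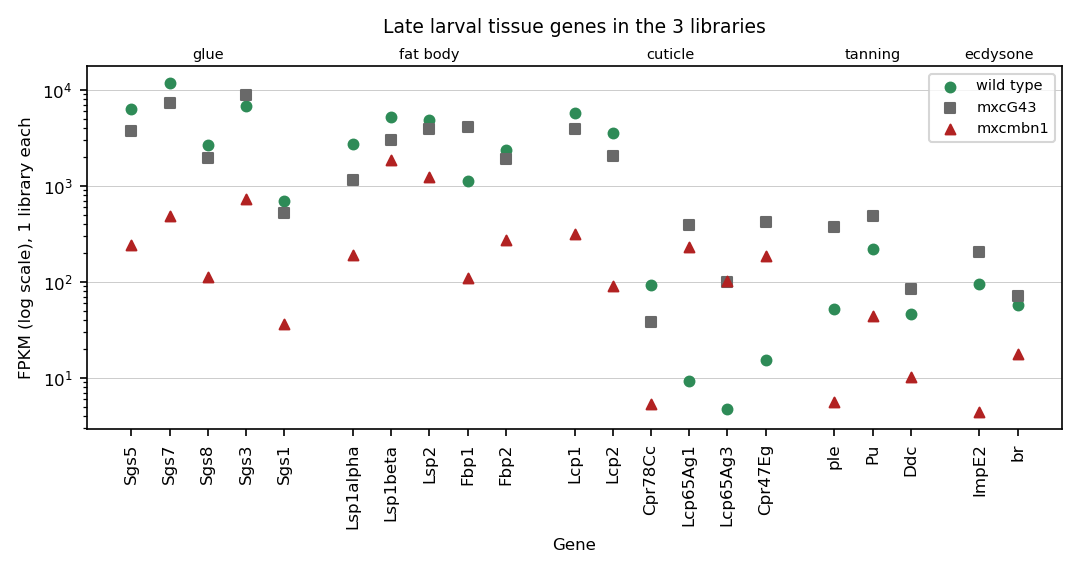
FPKM (vertical axis, log scale) of salivary glue, fat body, cuticle, tanning and ecdysone genes in the wild-type (green circles), mxcG43 (grey squares) and mxcmbn1 (red triangles) libraries, 1 point per library. The mxcmbn1 points are the lowest of each gene except Lcp65Ag1, Lcp65Ag3 and Cpr47Eg, where wild type is lowest; Fbp1, ple, Pu, Ddc and ImpE2 are among those highest in mxcG43.

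Blood cell genes were higher in mxcmbn1. All 14 haemocyte members were above wild type and 10 were at least 4 times higher, with a median ratio of 6.28 against 0.985 over all members. Some of them, nimC1 and nimC4 included, reached the minimum in mxcmbn1 alone, so their rise follows in part from that filter. The phagocytic receptor nimC1 (2L, 13974119 to 13976753) of plasmatocytes was at 3.28 FPKM in wild type, 10.5 in mxcG43 and 112 in mxcmbn1. Its relative nimC4, which takes up apoptotic cells, was at 0.328, 0.338 and 42.1 FPKM in the same order, so that its large ratio stands on a level below 1 FPKM. The scavenger receptor Sr-CI was at 20.7 FPKM in wild type, 14.3 in mxcG43 and 277 in mxcmbn1, hemolectin (Hml), a clotting protein, at 11.3, 9.98 and 100.2 FPKM and He at 46, 34 and 398 FPKM. The blood cell GATA factor srp was at 14 FPKM in wild type, 10.7 in mxcG43 and 51.5 in mxcmbn1. Smaller differences were seen for crq, a receptor for dying cells, at 1.57 times, for vir-1 at 1.85 times and for proPO-A1 (PPO1), the prophenoloxidase of crystal cells, at 2.75 times. Lamellocyte markers differed among themselves: the integrin alphaPS4 was at 0.424 FPKM in wild type, 0.465 in mxcG43 and 16.6 in mxcmbn1, whereas atilla was at 20.9 FPKM in wild type, 9.12 in mxcG43 and 29.3 in mxcmbn1 and the prophenoloxidase PPO3 (CG42640 in the table) stayed below the minimum at 0.352, 0.908 and 5.78 FPKM.

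Matrix genes, many of which plasmatocytes and fat body secrete, were higher as a group. All 13 members were above wild type and 8 at least 4 times, with a median ratio of 4.68; haemocyte markers moved with them, as given above, and their part in this was not tested. Papilin (Ppn; 3R, 24346387 to 24366053) was at 10.2 FPKM in wild type, 11.8 in mxcG43 and 170.3 in mxcmbn1. The laminin chains LanB2, LanB1 and LanA were at 6.95, 4.68 and 4.55 times wild type, and SPARC (BM-40-SPARC in the table), a collagen chaperone, was at 60.5 FPKM in wild type, 66 in mxcG43 and 340.0 in mxcmbn1. LanB2, at 8.13 FPKM in wild type, and Mmp2, given below, reached the minimum in mxcmbn1 and not in wild type, so their rise follows in part from that filter. The collagen IV chains Cg25C and vkg were at 3.43 and 3.06 times. Of the proteases that cut this matrix, Mmp2 was at 6.48 FPKM in wild type, 10.2 in mxcG43 and 32.1 in mxcmbn1 and Mmp1 at 19.8 FPKM in wild type, 36.1 in mxcG43 and 45.6 in mxcmbn1, and their inhibitor Timp was at 1.52 times. Peroxidasin (Pxn), which crosslinks collagen and is also a haemocyte marker, was at 13.3 FPKM in wild type, 11.6 in mxcG43 and 78 in mxcmbn1.

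Among growth and stress signals a few genes stood out from lists that lay somewhat above wild type. Of 16 growth members 14 were above 1, and the median ratio was 1.63. At least 4 times higher were 4 of them (25%, against 5.76% of all members), and none were lower. Of these, Pvf2 and Socs36E were below 10 FPKM in wild type and are members through mxcmbn1 alone, so their rise follows in part from the filter. Another 16 of the 32 genes in that list were under the minimum. Pvf2 (2L, 7069578 to 7084634), a ligand of the PDGF- and VEGF-like receptor that drives haemocyte proliferation, was at 4.48 FPKM in wild type, 3.64 in mxcG43 and 45.9 in mxcmbn1. Socs36E, a target and inhibitor of JAK/STAT signalling, was at 5.64 FPKM in wild type, 4.93 in mxcG43 and 36.6 in mxcmbn1. The secreted growth factors Idgf2 and Idgf1 were at 49.6, 67.1 and 259.8 FPKM and 41.8, 26.1 and 169 FPKM in wild type, mxcG43 and mxcmbn1. In contrast Thor, the translation inhibitor that FOXO switches on when insulin signalling is low, was at 0.90 times and the insulin-like peptide Ilp6 at 0.575 times. In the apoptosis and JNK list 12 of 14 members were above 1, with a median ratio of 1.45, and 1 passed 4 times. It was Ets21C, a transcription factor of stress and tumour responses, at 0.838 FPKM in wild type, 0.37 in mxcG43 and 12.9 in mxcmbn1. Its locus is shared with nAcRbeta-21C, described below, so its share of reads is uncertain. The Fos factor kay and the TNF ligand egr were both at 2.85 times, while the receptor CG10176 (grnd) was at 0.359 times. The JNK phosphatase puc, a standard readout of the pathway, was at 14.6 FPKM in wild type, 20 in mxcG43 and 19.9 in mxcmbn1.

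**Figure D4:**
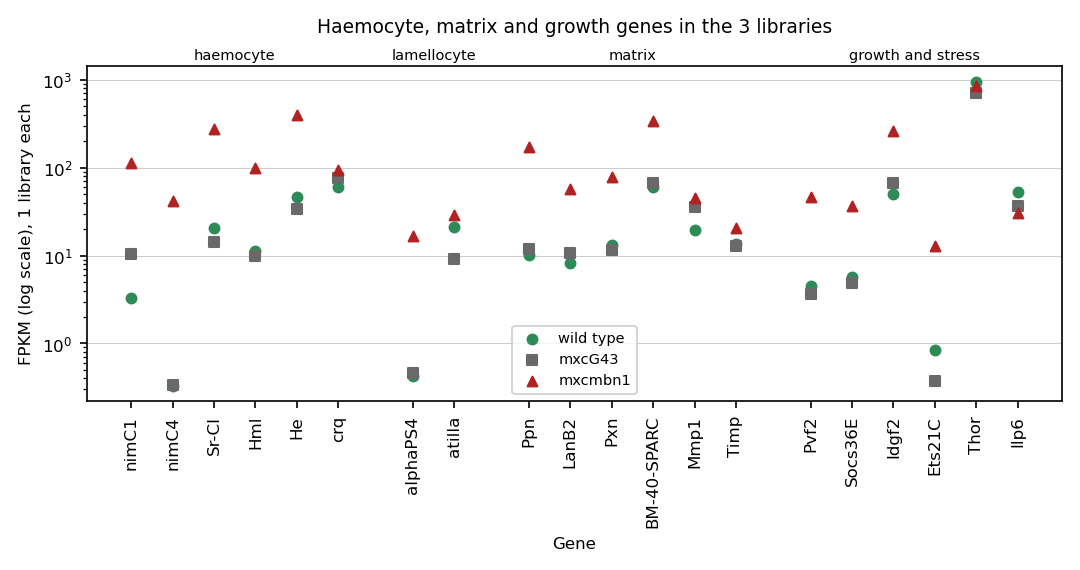
FPKM (vertical axis, log scale) of haemocyte, lamellocyte, matrix, and growth and stress genes in the wild-type (green circles), mxcG43 (grey squares) and mxcmbn1 (red triangles) libraries, 1 point per library. The mxcmbn1 point is the highest of each gene except Thor and Ilp6. For nimC4, alphaPS4 and Ets21C the other points are below 1 FPKM.

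Proliferation genes were a little above wild type. Of 32 replication and cell cycle members, 23 were above 1, with a median ratio of 1.39, but 25 lay within 2 times. Thymidylate synthase (Ts), which makes thymidine for DNA, was the one past 4 times, at 5.59 FPKM in wild type, 4.54 in mxcG43 and 23.3 in mxcmbn1, and the mitotic Cdc25 phosphatase stg was at 11.8 FPKM in wild type, 7.97 in mxcG43 and 36.3 in mxcmbn1. CycA and fzy, a mitotic cyclin and an activator of its destruction, were at 0.812 and 0.783 times. Replication-dependent histone genes, whose mRNAs lack a poly(A) tail, were at low levels throughout: 3 of 111 copies reached the minimum, at 2.66 to 3.12 times wild type. His2B:CG17949, the highest of them, was at 11.8 FPKM in wild type, 13.7 in mxcG43 and 36.8 in mxcmbn1, and these copies are nearly identical in sequence. The polyadenylated variants His3.3A, His3.3B and His4r were at 1.39, 1.14 and 1.48 times. The germline linker histone BigH1 (CG3509 in the table) was at 14.7 FPKM in wild type, 8.85 in mxcG43 and 0.362 in mxcmbn1.

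Core functions of every cell stayed close to wild type. The 68 mitochondrial ribosomal proteins had a median ratio of 1.06 and 67 of them lay within 2 times. Cytoplasmic ribosomal proteins had 1.07 over 85 members, and glycolysis enzymes 0.965 over 12. Within glycolysis the first enzyme, Hex-A, was at 2.65 times and Gapdh2, further down the pathway, at 0.403 times. None of 22 contractile proteins passed 4 times, although arginine kinase (Argk), the energy buffer of muscle, was at 826 FPKM in wild type, 489 in mxcG43 and 269 in mxcmbn1. Aminoacyl-tRNA synthetases, which load tRNAs, had 13 of 14 members above 1 and a median of 1.46. In the endoplasmic reticulum list Xbp1, the transcription factor of the unfolded protein response, was at 30.9 FPKM in wild type, 106 in mxcG43 and 181 in mxcmbn1, while 21 of 23 members lay within 2 times.

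**Figure D5:**
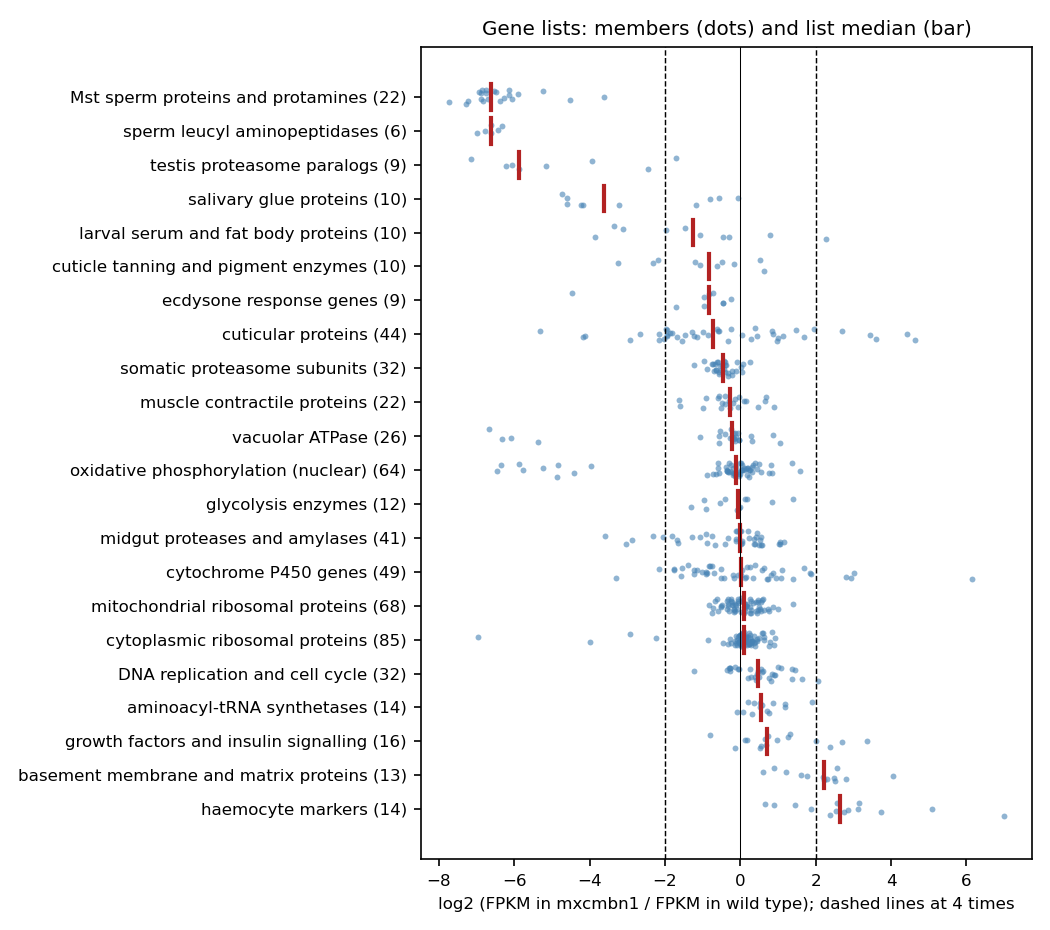
Log2 ratio of FPKM in mxcmbn1 to wild type (horizontal axis) for the members of 22 gene lists that are above 0 in both libraries (blue dots) with the median of each list (red bar) and the number of members in brackets. Dashed lines mark 4 times; sperm, testis proteasome and glue genes lie on the left, ribosomal proteins close to 0 and haemocyte and matrix genes on the right.

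Digestive enzyme genes were spread much like the members as a whole. Of 41 midgut enzymes 27 lay within 2 times, 5 were at least 4 times lower and none higher. The shares within 2 times and lower were 65.9% and 12.2%, against 61.7% and 16.2% of all members, and the median ratio was 1.0. The serine proteases Jon25Biii and Jon25Bi were at 2712, 399 and 331 FPKM and 756, 338 and 103 FPKM in wild type, mxcG43 and mxcmbn1, and both were thus lower in each mutant. Jon65Aiii and alphaTry, enzymes of the same kind, were at 1.34 and 2.24 times. The gut lining list had 11 peritrophic and mucin members between 0.382 times for Peritrophin-A and 3.73 times for Muc18B.

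Detoxification genes had a median near that of all members but a wide range. For 49 P450 members, oxidases of hormones, toxins and lipids, the median ratio was 1.01, with 4 at least 4 times higher (8.16%, against 5.76% of all members) and 2 lower (4.08%, against 16.2%). Cyp4e3 (2L, 9747839 to 9750071) was at 1.71 FPKM in wild type, 122 in mxcG43 and 121 in mxcmbn1, so the mutants were alike and wild type stood apart. Cyp6g1, known for its part in insecticide resistance, was at 145 FPKM in wild type, 55.5 in mxcG43 and 14.6 in mxcmbn1. Of the glutathione S-transferases, which conjugate toxins, GstD5, GstE6 and GstD3 were at least 4 times higher of 26 members, with GstD5 at 0.792 FPKM in wild type, 2.86 in mxcG43 and 39 in mxcmbn1. Transferrin (Tsf1), the iron carrier of the blood, was at 13.2 FPKM in wild type, 18.2 in mxcG43 and 95.5 in mxcmbn1, and the metallothionein MtnA at 161 FPKM in wild type, 404 in mxcG43 and 554 in mxcmbn1.

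The small heat shock genes Hsp23, Hsp27 and Hsp67Bc were below wild type in mxcmbn1 and above it in mxcG43. Hsp23 was at 475 FPKM in wild type, 1733 in mxcG43 and 97 in mxcmbn1, Hsp27 at 365 FPKM in wild type, 653 in mxcG43 and 79.2 in mxcmbn1 and Hsp67Bc at 26.7 FPKM in wild type, 90.2 in mxcG43 and 3.58 in mxcmbn1. They were the 3 genes at least 4 times lower among 14 members of the heat shock list (21.4%, against 16.2% of all members), and they belong to a gene cluster that is also known, in part, as ecdysone-responsive. The cognate chaperone Hsc70-4 was at 429 FPKM in wild type, 561 in mxcG43 and 1003 in mxcmbn1 and the mitochondrial chaperonin Hsp60 at 2.34 times. With the minimum lowered to 1 FPKM, which lets in the Hsp70 copies, the median of the list moved from below to above wild type.

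Signalling molecules and carriers held some of the largest single changes. Nplp2 (3L, 13349634 to 13350323), a short secreted protein that travels with blood lipoproteins, was at 504 FPKM in wild type, 2650.3 in mxcG43 and 11491 in mxcmbn1, the largest absolute gain of any protein-coding member outside the immune list. Obp99b (3R, 25541976 to 25542618), an odorant-binding protein also made in the fat body, was at 6912 FPKM in wild type, 7236 in mxcG43 and 375 in mxcmbn1. CG42500, an uncharacterised gene with the fifth largest loss, was at 7089 FPKM in wild type, 8256 in mxcG43 and 642 in mxcmbn1. Obp99a and Obp44a were lower as well, at 0.237 and 0.277 times, and Obp49a was higher, at 14.1 FPKM in wild type, 31.4 in mxcG43 and 219.6 in mxcmbn1. The acetylcholine receptor subunit nAcRbeta-21C was at 4.53 FPKM in wild type, 3.37 in mxcG43 and 108 in mxcmbn1. It is given the same locus as Ets21C (2L, 545129 to 552454), so the share of reads given to each is uncertain. The synaptic genes Syt1 and Csp were at 0.898 and 1.6 times. The list of neuronal genes had 8 of 30 above the minimum, and its median turned from above to below wild type with a minimum of 1 FPKM. Of the 32 disc patterning genes 4 reached the minimum, with hth lowest at 54.3 FPKM in wild type, 46.8 in mxcG43 and 23.3 in mxcmbn1.

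Ranked by ratio alone, the top genes outside the immune list were mostly little studied. Among members with at least 1 FPKM in the lower library CG33462 (2R, 11584309 to 11585515), which resembles serine proteases, had the largest ratio, at 1.09 FPKM in wild type, 1.91 in mxcG43 and 123 in mxcmbn1. Its neighbour CG33461 was at 1.21 FPKM in wild type, 0.691 in mxcG43 and 82.7 in mxcmbn1. The genes CG42680, CG43175 and CG6788 were at 91.5, 89.3 and 83.3 times, and the C-type lectin lectin-24A at 1.61 FPKM in wild type, 0.592 in mxcG43 and 99.3 in mxcmbn1. The non-coding RNA CR43855 reached 1526 FPKM from 14.3, with a locus that overlaps other entries. A copy of the Suppressor of Stellate repeat, Su(Ste):CR42418, was at 1.11 FPKM in wild type, 1.34 in mxcG43 and 76.4 in mxcmbn1, and its near-identical copies make its share of reads uncertain. Also in this ranking were CR43276, CR32496, CG34054, CG43166 and CG43402, at 39.8 to 96.3 times. The better-known genes Cyp4e3 and nimC1, described above, were in it too, at 70.5 and 34.1 times. At the other end the 15 smallest ratios ran from 0.473% of wild type for Mst84Db to 1.04% for CG12861. They also held ocn, Mst84Dc, S-Lap1, SIP2 and the CG genes CG17376, CG31988, CG17377, CG31948, CG9920, CG31788, CG31820, CG12699 and CG42393. In mxcG43 the level of CG12699, the most abundant of these in wild type, was 290.1 FPKM against 367 in wild type and 3.48 in mxcmbn1.

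The highest levels of genes listed at 0 in 1 of the libraries belonged to short RNAs. Of 174 members of short RNA classes, 90 were at 0 in wild type or mxcmbn1. The highest in wild type that were listed at 0 in mxcmbn1 were mir-1003 with 2683 FPKM and 4 snoRNAs, all at 0 in mxcG43 too. The highest in the other direction were mt:tRNA:D with 5156 FPKM, mir-4918 with 5129.8 and mt:tRNA:T with 1925, then a pair of snoRNAs. Division by a very short length turns few reads into a large FPKM, so these values are unreliable. Among mitochondrial transcripts the mRNAs mt:CoI and mt:CoII were close to wild type, at 0.875 and 0.931 times, whereas mt:tRNA:G was at 15.9 times, mt:tRNA:H at 7.75 and mt:srRNA at 0.29. The tRNAs mt:tRNA:A and mt:tRNA:R had the highest gains in FPKM of all members, at 2.69 and 1.59 times wild type, and in mxcG43 both were far below wild type. Among protein-coding members 94 were listed at 0 in mxcmbn1, with wild-type levels up to 66 FPKM, and 8 in wild type. Protein-coding members alone, 6559 by their RefSeq class, had 307 higher and 1040 lower genes.

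By chromosome arm the share of members at least 4 times lower was highest on 2L, at 20.2% of 1349, followed by 16.4% on 3R, 16.2% on 3L, 14.8% on 2R and 14.5% on the X. On the small chromosome 4 it was 3.33% of 60 members. The share at least 4 times higher ran from 1.67% on chromosome 4 to 7.65% on 2R, with 3.81% on the X. Of 15 Y-linked genes in the list, 13 were under the minimum. Of the 2 that passed, CG42620 was listed at 0 in both mutants and at 23.7 FPKM in wild type. The other, CG41503 (FDY), was at 4.36 FPKM in wild type, 4.77 in mxcG43 and 24.4 in mxcmbn1.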

How the data were processed

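RNA-seq libraries, 1 per genotype, were made from whole male 3rd instar larvae and read as single-end reads of 51 bp from a strand-keeping kit. The authors checked reads with FastQC 0.11.5, aligned them to BDGP5 with TopHat2 2.0.6 and computed the deposited FPKM values with Cufflinks, running these tools at their defaults. The default treats reads as unstranded, so genes that overlap on opposite strands cannot be told apart; the gene annotation is not given in the sources used here. Read counts were not used, so no interval is given. Locus starts, which the table counts from 0 (3424 of 11346 gene widths matched the BDGP6 annotation that way), are given from 1. RefSeq names matched 6859 of 6995 members.

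Entries naming 1 gene with at least 10 FPKM in wild type or mxcmbn1 were compared as plain ratios, with no pseudocount. Ratios of at least 4 or at most 0.25 were counted; a gene listed at 0 was counted but given no fold. The members and gene lists were chosen with earlier results of these data known. Outside the immune list, the genes named were drawn from the 15 largest and 15 smallest ratios with at least 1 FPKM in the lower library, the 5 highest listed at 0 in the other library each way, the 5 largest gains and losses, the 3 largest and smallest ratios of each list, mxc and w; other genes of the lists, the duplicate pairs and vas were named after their values were seen. Relative depth was read from short entries (under 200 bp) whose ratio was one of numbers up to 6 within 6e-05; 9 of 43 fitted. The counting step was tested on simulated data. Alternatives covered minimum FPKM, pseudocount, scaling, threshold, zeros, overlapping loci, joined entries, the immune list and the reference. Python 3.11.15, numpy 2.4.6, pandas 2.3.3 and matplotlib 3.10.9 were used.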

Additional observations from a re-analysis of the deposited data

Results flagged for a closer look

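Among the genes picked out by the naming rule, the mutants lay on opposite sides of wild type by at least 2 times in 11; this difference was not tested, as each genotype has 1 library and the comparisons share the wild-type library. Fbp1 was at 4098 FPKM in mxcG43 and 111 in mxcmbn1, with 1129 in wild type. Among the small heat shock genes, Hsp23 was at 1733 and 97 FPKM around a wild-type level of 475, and Hsp67Bc at 90.2 and 3.58 around 26.7. ImpE2 was at 204 and 4.38 FPKM around 96.3. In the tanning pathway, Pu was at 483 and 44.6 around 223, and ple at 377 and 5.62 around 53. These 6 were higher in mxcG43 and lower in mxcmbn1.

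The other 5 were lower in mxcG43 and higher in mxcmbn1. Ets21C, which shares its locus with nAcRbeta-21C, was at 0.37 FPKM in mxcG43 and 12.9 in mxcmbn1, with 0.838 in wild type. The lectin lectin-24A was at 0.592 and 99.3 around 1.61. The prophenoloxidase proPO-A1 was at 36.6 and 214 FPKM around 77.7, the maltase Mal-A3 at 7.37 and 34.9 around 16.7, and mt:tRNA:A at 3031 and 77622 around 28806.

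Entries that join several genes were left out of the comparison. Of 229 that reached 10 FPKM in wild type or mxcmbn1, 34 were at least 4 times lower in mxcmbn1 and 3 at least 4 times higher. Among the single-gene members these shares were 16.2% and 5.76%. The 3 higher entries are given in the order wild type, mxcG43 and mxcmbn1. That for CG18754 and SPE, a protease upstream of Toll, was at 6.13, 5.96 and 83 FPKM. That for CG32138 and CG43986 was at 13.8, 23.6 and 85.8 FPKM, and that for CG43733 and Ggamma30A at 24.3, 24.5 and 134 FPKM.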

How the results depend on the processing

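The 403 higher and 1135 lower genes depended most on the minimum level. They became 724 and 2182 of 11704 genes with at least 1 FPKM, 1198 and 2618 of 13490 with no minimum, and 224 and 257 of 2130 with at least 50 FPKM. With overlapping loci left out they were 258 and 714 of 4277. At 2 times there were 1047 higher genes and at 10 times 215. The other alternatives, protein-coding entries only among them (chosen after seeing the data), left both counts within 1.5 times. Scaling mattered little: dividing by the median ratio or by upper quartiles moved ratios by under 0.03 on the log2 scale. No list median at least 4 times from wild type changed direction. Medians that did so with another minimum were near wild type or rested on few genes, as for neuronal genes (log2 0.87 to -0.36 at 1 FPKM), heat shock genes (-0.74 to 0.38), Y-linked genes (1.48 to -4.31) and testis tubulins and dyneins (0.27 to -2.40). No replicate could be left out. No paired analysis was possible because each genotype has 1 library. Low levels rest on few reads, so ratios of genes under 1 FPKM are imprecise.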

Other observations

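Outside the lists and the ranking, a few genes, named here after their values were seen, also differed strongly. Arc1, a synaptic gene that forms virus-like capsids, was at 31.5 FPKM in wild type, 162 in mxcG43 and 377 in mxcmbn1, and its neighbour Arc2 at 2.35 FPKM in wild type, 9.42 in mxcG43 and 46.6 in mxcmbn1. The transcription factor kn, which sets the posterior signalling centre of the lymph gland and the lamellocyte fate, was at 0.956 FPKM in wild type, 1.5 in mxcG43 and 13.5 in mxcmbn1. The ETS factor pnt was at 6.18 FPKM in wild type, 6.73 in mxcG43 and 39.5 in mxcmbn1, and the haemocyte and muscle factor zfh1 at 4.95 FPKM in wild type, 5.31 in mxcG43 and 34 in mxcmbn1. The tubulin betaTub60D was at 28.8 FPKM in wild type, 56.2 in mxcG43 and 164 in mxcmbn1.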
